A study of Caenorhabditis elegans with 2 samples.

Results

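The regions described here are those of the pooled list of an ELT-3 chromatin immunoprecipitation and sequencing (ChIP-seq) experiment whose summit lay within 200 bp of an annotated tRNA, rRNA, snRNA or snoRNA gene. They numbered 243 of the 30000 regions, and the other 29757 regions of the same list served for comparison. By the nearest gene, 91 lay at snoRNA genes, 29 at snRNA genes, 122 at tRNA genes and 1 at an rRNA gene. The choice used position alone and no measured value. The material was whole L2 larvae of mixed sex of Caenorhabditis elegans strain OP75, which carries unc-119(ed3) on chromosome III and the transgene wgIs75, and stably expresses ELT-3 with GFP-FLAG at its C-terminus. The labels name neither the promoter of the transgene nor an antibody beyond its target, elt-3. The labels define 1 group of 2 biological replicates, and samples of input or untagged worms were not analysed here, which leaves the regions with no control values of the same kind. In whole animals, more bound cells and more binding per cell cannot be told apart.

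ELT-3 is a GATA transcription factor of the worm's hypodermis. Its family is known to bind DNA at GATA sites. The RNAs considered here have core duties in every cell: snoRNAs guide chemical modification of ribosomal RNA and other RNAs, snRNAs carry out splicing and, in nematodes, donate spliced leaders in trans-splicing, tRNAs bring amino acids to the ribosome, and rRNAs build it. RNA polymerase III reads tRNA genes from a promoter inside the gene, whose downstream part is called the B box, and some C. elegans snoRNA genes are known to carry such tRNA-like elements ahead of the mature RNA.

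The sequences below show the B box letters inside tRNA genes and ahead of some snoRNA genes, and all are from WBcel235 (ce11) as held by RefSeq, 5′ to 3′. The first 4 are tRNA genes on their own strand, at regions that rank high in the pooled list, though not in both replicates. Capitals mark the B box letters GTTCNANNC, where N is any base. They are W09G10.t3 (tRNA-Thr, chrII:3519086-3519157, minus strand), Y7A9D.t2 (tRNA-Ala, chrIV:16389211-16389282, minus strand), F46G11.t2 (tRNA-Pro, chrX:5801211-5801282, minus strand) and R04A9.t1 (tRNA-Gln, chrX:410391-410462, plus strand).
W09G10.t3: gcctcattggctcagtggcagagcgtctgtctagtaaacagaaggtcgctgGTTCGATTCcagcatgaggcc
Y7A9D.t2: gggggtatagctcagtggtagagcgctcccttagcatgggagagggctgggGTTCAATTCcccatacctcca
F46G11.t2: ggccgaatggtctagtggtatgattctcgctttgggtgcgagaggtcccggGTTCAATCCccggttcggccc
R04A9.t1: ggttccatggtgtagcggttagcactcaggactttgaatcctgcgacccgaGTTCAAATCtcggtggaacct
The next 3 are 201 bp windows centred on the summits of 3 high snoRNA regions, on the plus strand, at chrV:11314084-11314284 (T03F7.8), chrIV:7573986-7574186 (F32E10.10) and chrV:12303584-12303784 (C51F7.4). Capitals mark every annotated snoRNA (in the last window C51F7.4 and then C51F7.3), and in T03F7.8 and F32E10.10 the short capital run before it is a match to the same B box letters.
T03F7.8: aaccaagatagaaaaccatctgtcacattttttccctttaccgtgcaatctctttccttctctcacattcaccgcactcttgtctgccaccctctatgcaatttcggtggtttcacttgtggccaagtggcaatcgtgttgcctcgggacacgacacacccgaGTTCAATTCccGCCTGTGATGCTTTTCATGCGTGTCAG
F32E10.10: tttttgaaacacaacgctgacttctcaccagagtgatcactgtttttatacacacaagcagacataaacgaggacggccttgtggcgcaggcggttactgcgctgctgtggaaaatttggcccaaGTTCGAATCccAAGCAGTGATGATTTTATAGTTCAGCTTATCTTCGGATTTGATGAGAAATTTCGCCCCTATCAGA
C51F7.4: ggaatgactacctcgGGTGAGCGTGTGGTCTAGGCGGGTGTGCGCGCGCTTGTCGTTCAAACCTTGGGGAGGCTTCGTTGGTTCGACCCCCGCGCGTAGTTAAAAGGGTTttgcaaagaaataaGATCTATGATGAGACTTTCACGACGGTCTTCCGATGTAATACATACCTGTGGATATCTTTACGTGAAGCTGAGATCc
In both snoRNA windows with a marked match, that match ended just short of the annotated RNA. In C51F7.4, which the annotation places across an exon of frm-7, the same letters occur inside the first capital run. The choice is not of the highest regions as a whole. Among those not shown are the regions at M02F4.t2, ZK507.t1, C15C6.t1, Y37E3.20, F59C6.15, F17C11.24, T19B4.8 and the snRNA genes. Some snoRNA regions among the 1000 highest of the pooled list are thus not shown. Of the genes at these, only T19B4.8 had the letters in the 100 bases upstream, while Y37E3.20, F59C6.15, F17C11.24 and the rest did not.

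Regions at small RNA genes ranked much like the rest of the pooled list, with a few at the very top. Regions were ranked by the signal value, a score that the authors' caller gave each region against a control alignment, with rank 1 the highest. The median signal value was 16.8 for the 243 regions and 16.4 for the other regions. Their median rank was 13903 (interquartile range 6936 to 20178), against 15012 (7509 to 22512) for the other regions. The 3000 highest regions held 31 of the 243 (12.8%, 95% Wilson interval 9.13 to 17.5%), against 9.98% of the other regions. Among the 1000 highest were 14 of the 243 (5.76%, 3.46 to 9.44%), against a background of 3.31% of the other regions. The interval of the 14 lay just above that background. It covers the counting of regions only, because regions of 1 list are not replicates, and no test was made. The same share was 1.82% of 55 regions at miRNA genes, 2.47% of 485 regions at piRNA genes and 3.18% of 7622 regions in protein-coding promoter windows.

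**Figure D1:**
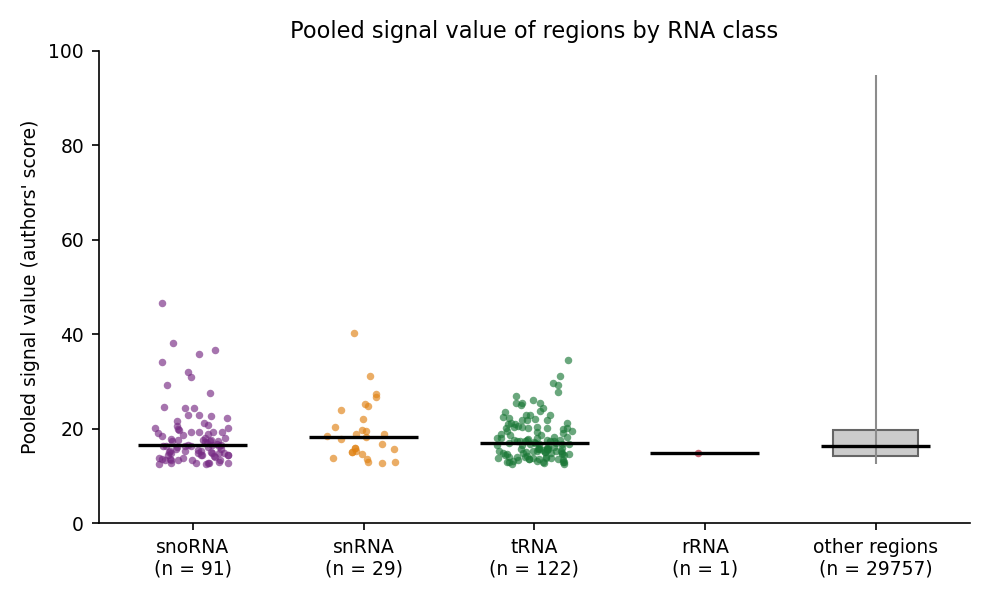
Pooled signal value (authors' score, no unit) of every region at a small RNA gene, by the class of its nearest gene, with the median as a black line; for the 29757 other regions the box spans the quartiles and the grey line the lowest to the highest value. The medians of the classes with several regions lie between 16.5 and 18.2, close to 16.4 for the other regions, and no region at a small RNA gene passes 46.7, while the other regions reach 94.8.

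**Figure D2:**
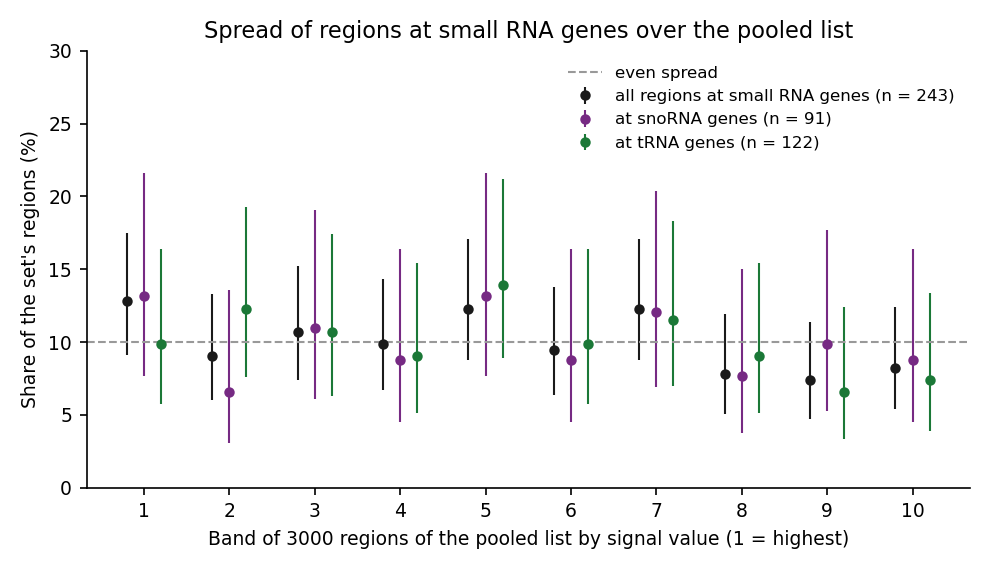
Share of regions at small RNA genes (all 243, the 91 at snoRNA genes and the 122 at tRNA genes) falling in each band of 3000 regions of the pooled list by signal value, with 95% Wilson intervals; the dashed line is an even spread. The intervals of these sets reach the dashed line in every band. Regions at snRNA and rRNA genes are not drawn as sets of their own.

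None of the 243 had a q-value under 0.05, against 15 of the 29757 other regions, a background that leaves less than 1 such region among 243. The lowest q-value at a small RNA gene was 0.236. The authors' short list by irreproducible discovery rate (IDR) held 1 of them, at the snoRNA gene T03F7.8, among 33 regions. As a check of the immunoprecipitation, the highest of 3 regions at the elt-3 gene itself had a signal value of 54.3 and ranked 12 in the pooled list, 10877 in replicate 1 and 5 in replicate 2. The next, with a signal value of 46.3 and pooled rank 31, ranked 6 in replicate 1 and 5010 in replicate 2, and the lowest (40.2, pooled rank 66) ranked 2364 and 193. The labels do not say whether the transgene holds the bases under these regions, so DNA of the transgene and of the chromosome cannot be told apart there.

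The snoRNA genes held most of the high regions. Of 91 snoRNA regions, 8 were among the 1000 highest (8.79%, 4.52 to 16.4%), against 3.31% of the other regions, although their median rank of 14671 was close to that of the other regions, 15012. The highest was at T03F7.8, a snoRNA gene in an intron of cutl-18, a cuticlin-like gene on the opposite strand. Its region (chrV:11314009-11314358) had a pooled signal value of 46.7 and rank 28, with signal values of 27.0 in replicate 1 (rank 27) and 19.6 in replicate 2 (rank 399). Its summit lay 74 bp upstream of the RNA. A weaker region on the other side of the same gene ranked 11535, and was listed at rank 400 in replicate 1 and not in replicate 2.

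F32E10.10, outside protein-coding genes (chrIV:7573911-7574260), had a pooled signal value of 38.1 and rank 99, with rank 76 in replicate 1 and 2861 in replicate 2. Y37E3.20, in an intron of pcyt-2.1, had a pooled signal value of 36.7 and rank 131, with ranks 1386 and 962 in replicates 1 and 2. Its summit lay 185 bp from a start of pcyt-2.1. F59C6.15, between protein-coding genes, had a pooled signal value of 35.8 and rank 167, with ranks 234 and 800. These snoRNA regions were all listed in both replicates, with only F59C6.15 and T03F7.8 inside the 1000 highest of each.

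The region at C51F7.4 and its neighbour C51F7.3 (chrV:12303509-12303858) had a pooled signal value of 34.1 and rank 249, with ranks 1406 and 1038. F17C11.24 had a pooled rank of 406, but rank 12101 in replicate 1 and 637 in replicate 2. T19B4.8 had 31.0 and rank 520, with ranks 1607 and 760. Y53F4B.48 had 29.3 and rank 807, and it ranked 44 in replicate 1 while replicate 2 did not list it. F17C11.24 and Y53F4B.48 thus stood far apart in the replicates, while C51F7.4 and T19B4.8 stood closer. Y71G12B.41, which overlaps an exon of Y71G12B.31, followed at a pooled signal value of 27.5 and rank 1194, with ranks 15764 and 7290. The summits at Y37E3.20, F59C6.15, F17C11.24 and Y53F4B.48 also lay in a protein-coding promoter window (1000 bp upstream to 200 bp downstream of a start). These were 4 of the 36 snoRNA regions in such a window (11.1%, 4.41 to 25.3%). Of the 55 snoRNA regions outside, 4 were among the 1000 highest (7.27%, 2.86 to 17.3%). For regions away from small RNA genes the shares were 3.18% in such windows and 3.36% outside. Which gene a region in such a window belongs to cannot be told from position.

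Many worm snoRNAs sit in introns of ribosomal protein genes, whose products join the ribosome that the snoRNAs help to mature. Of 19 snoRNA genes in such introns, 7 had a pooled region (36.8%), against 25.4% of all snoRNA genes. The regions numbered 6, at snoRNA genes in introns of rpl-6, rpl-15, rps-4 (2 regions), rps-29 and rpl-24.1, and their pooled ranks ran from 6391 to 19123. In the rpl-15 region and both rps-4 regions the summit itself lay in a coding exon.

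B box letters stood upstream of several of the highest snoRNA genes. This search was chosen after the highest snoRNA regions were seen, so the counts below restate that observation and nothing is read from their difference. GTTCNANNC on the gene's own strand, in the 100 bases before the gene, was found at 33 of 346 snoRNA genes (9.54%). The same length of sequence held it before 3.83% of miRNA genes, 1.43% of protein-coding genes, 0.817% of tRNA genes and 0.775% of snRNA genes, while 95.9% of tRNA genes held it inside the gene. At 17 of the 33 snoRNA genes the match started 9 to 14 bases before the RNA. Among the 33 genes, 4 had a region among the 1000 highest (12.1%, 4.82 to 27.3%), against 5 of the 313 without the letters (1.6%, 0.684 to 3.68%). Those 4 were T03F7.8, F32E10.10, T19B4.8 and C51F7.3, and the match of C51F7.3 lay inside its neighbour C51F7.4. Their shared region counts on both sides, since C51F7.4 is among the 5. Any pooled region was found at 12 of the 33 (36.4%, 22.2 to 53.4%), against 76 of the 313 (24.3%, 19.9 to 29.3%). The other 21 of the 33 genes had no region at all.

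In each replicate's own list, 2 (replicate 1) and 3 (replicate 2) of the 33 genes with the letters had a region among the 1000 highest. Without the letters it was 5 and 4 of 313 genes. The pooled list was made from both replicates, so these counts also restate the observation that prompted the search, and nothing is read from them. On either strand of the 201 bp windows, the letters were in 28.8% of the 243 windows, against 8% of the other windows. Since tRNA genes carry these letters themselves, this share follows in part from the choice of regions.

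**Figure D3:**
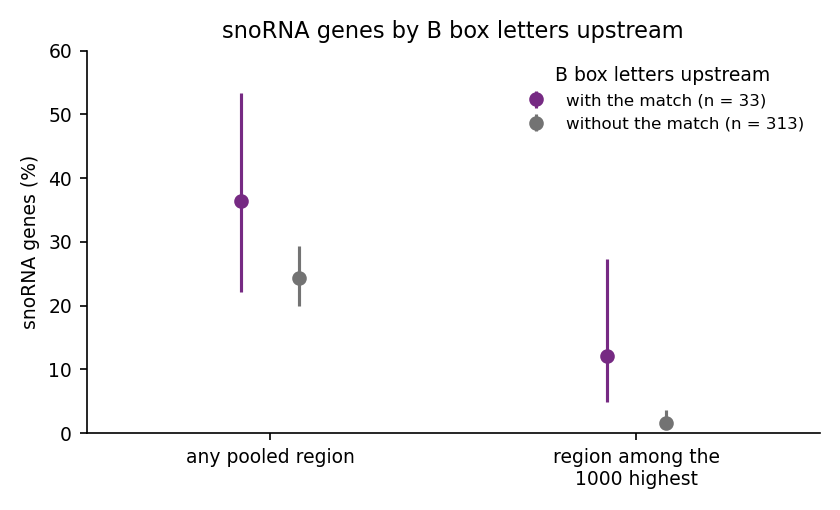
Share of snoRNA genes with any pooled region, and with a region among the 1000 highest, for the 33 genes with the B box letters in the 100 bases upstream and the 313 without (points), with 95% Wilson intervals (lines). Any region was found at 36.4% against 24.3% of genes, and a region among the 1000 highest at 12.1% against 1.6%, which rests on 4 and 5 genes and on letters searched after the highest regions were seen.

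Among snRNA regions, the highest lay over the gene itself and the rest were spread widely. The 29 snRNA regions had a median rank of 10544 and a median signal value of 18.2, against 15012 and 16.4 for the other regions, and 2 of them (6.9%, 1.91 to 22%) were among the 1000 highest. The 3000 highest held 7 of the 29 (24.1%, 12.2 to 42.1%), against 9.98% of the other regions. W05B2.8, in an intron of dhc-4, a dynein heavy chain gene, had a region with a pooled signal value of 40.3 and rank 65, ranking 110 and 341 in replicates 1 and 2. The annotation holds 14 genes with this exact sequence, of which W05B2.8 is the copy at this region, so reads from them could be assigned to this copy or left out, and how the authors treated such reads is not given in the sources used here. F38E11.10 had a pooled signal value of 31.1 and rank 510, but rank 11199 in replicate 1 and 41 in replicate 2, and another annotated gene has the same sequence. Both summits lay inside the snRNA gene. The gene sup-6, known for alleles that suppress a splice-site mutation, had 27.4 and rank 1232, at rank 221 in replicate 2 and absent from replicate 1. The summit lay 89 bp from sup-6, in a coding exon. The region of sup-39, known for the same kind of allele, ranked 4675 in the pooled list.

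The genes of the 2 spliced leaders, the short exons that trans-splicing puts at the start of messenger RNAs, differed in how many had a region. Of 18 annotated SL2 RNA genes (sls-2), 10 had a pooled region (55.6%, 33.7 to 75.4%), against 0 of 12 SL1 RNA genes (sls-1, 0 to 24.2%). The share of all 1107 small RNA genes with a region was 22.6%. Several SL2 RNA genes with a region lie close together. They are sls-2.5, sls-2.16 and sls-2.18 in introns of glr-2, sls-2.14 and sls-2.15 in introns of W09D6.5, and sls-2.2 near sls-2.3. The interval counts each gene as separate. Each of the 18 sls-2 genes has a sequence of its own, while the sls-1 genes sit in the repeated 5S cluster of chromosome V and 10 of them are identical. The part that this repeat plays in the 0 was not tested. The 10 SL2 regions ranked from 1462 to 27645 in the pooled list, with a median rank of 8434, and none was among the 1000 highest. The best was at sls-2.4, with a pooled signal value of 26.7, at rank 180 in replicate 2 and not listed in replicate 1. The others ran from sls-2.2 (rank 2149) and sls-2.15 (rank 2336) down to sls-2.3 (rank 27645), and both replicates listed 4 of the 10.

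**Figure D4:**
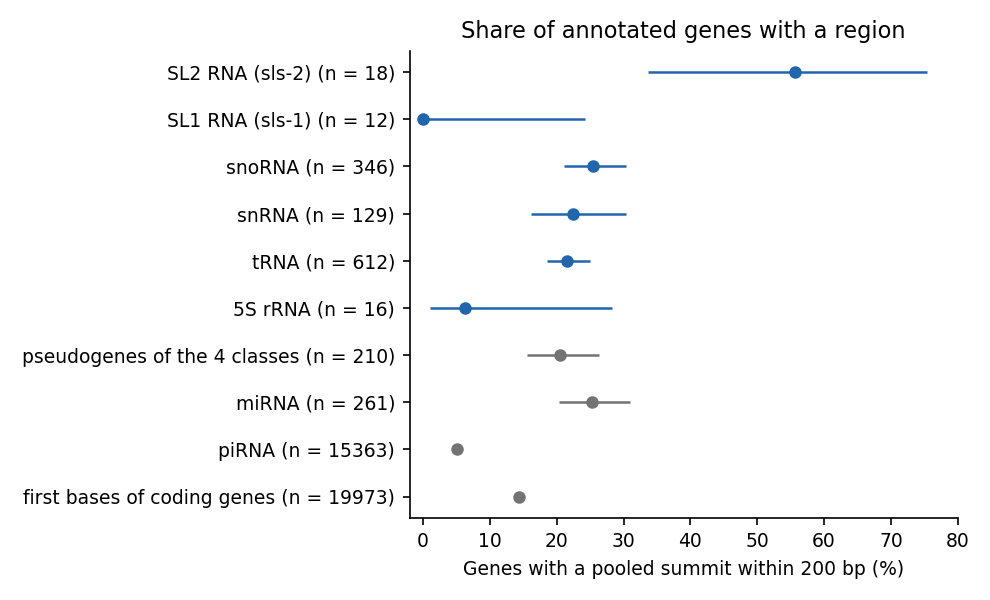
Share of annotated genes with a pooled summit within 200 bp (points) and 95% Wilson intervals (lines), for families and classes of the small RNA genes (blue) and for comparison genes (grey). SL2 RNA genes reach 55.6% while the snoRNA, snRNA, tRNA, miRNA and pseudogene shares lie between 20.5% and 25.4%.

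At tRNA genes the regions ranked close to the rest of the list. Their 122 regions had a median rank of 13426 and a median signal value of 17.0, against 15012 and 16.4 for the other regions, and 4 (3.28%, 1.28 to 8.13%) were among the 1000 highest, against 3.31%. The highest lay over a pair of genes, M02F4.t1 and M02F4.t2 (tRNA-Glu, chrX:3035812-3036161), with a pooled signal value of 34.6 and rank 214, ranking 758 and 826 in replicates 1 and 2. ZK507.t1 (tRNA-Asn), in an intron of dos-1, had a pooled signal value of 31.2 and rank 497, with ranks 2415 and 4784. Its summit lay 175 bp upstream of the gene, in a coding exon. W09G10.t3 (tRNA-Thr), with W09G10.t2 nearby, had 29.6 and rank 725, with rank 1759 in replicate 1 and no region in replicate 2. Y7A9D.t2 (tRNA-Ala) had 29.3 and rank 797, with ranks 380 and 2836. Of these, only the M02F4 pair was among the 1000 highest of both replicates.

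Next came F46G11.t2 (tRNA-Pro, pooled rank 1153), with rank 16134 in replicate 1 and 952 in replicate 2. C15C6.t1 (tRNA-Arg, pooled rank 1371) had rank 130 in replicate 1 and none in replicate 2. R04A9.t1 (tRNA-Gln, pooled rank 1751) had rank 8568 in replicate 2 and none in replicate 1. Regions were found at 132 of 612 tRNA genes (21.6%, 18.5 to 25%). By amino acid, the share ran from 0 of 20 tRNA-Met genes to 15 of 42 tRNA-Pro genes (35.7%, 23 to 50.8%). The share with any region varied little with the number of identical copies in the genome: 21.7% of tRNA genes with a sequence of their own had a region, 19.5% of those with 2 to 5 copies, 21.2% with 6 to 15 and 23.1% with over 15. For a region among the 1000 highest, the shares in the same order were 0.699%, 0, 0.433% and 2.56% (1, 0, 1 and 4 genes). The sequences of M02F4.t2, ZK507.t1 and Y7A9D.t2 are held by 20, 18 and 15 annotated genes. The part that copies play in these high regions was not tested. The B box core GGTTCGA, on either strand of the 201 bp window, was in 27% (20 to 35.5%) of tRNA regions, against 1.63% of the other regions. Since 64.5% of tRNA genes hold it in the gene, this share follows in part from the choice of regions.

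Only 1 region lay at an rRNA gene, the 5S gene rrn-4.15. It had a pooled signal value of 14.9 and rank 19818, and neither replicate listed it. Of 16 annotated 5S genes it was the only gene with a region, and the 4 annotated genes of the other rRNAs had none.

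Taken by gene, the share with a region was 25.4% (21.1 to 30.3%) of 346 snoRNA genes and 22.5% (16.1 to 30.4%) of 129 snRNA genes. It was 25.3% of 261 miRNA genes, 20.5% of 210 pseudogenes of the 4 classes, 14.3% of protein-coding genes by their first 72 bases, and 5.06% of piRNA genes. A longer gene gives a wider window, and median lengths were 130 bp for snoRNA, 109 bp for snRNA, 72 bp for tRNA and 21 bp for piRNA genes. For a region among the 1000 highest, the share was 1.54% of the 1107 small RNA genes, against 0.446% of coding starts, 0.383% of miRNA genes and 0 of the 210 pseudogenes.

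Regions at small RNA genes in introns, outside protein-coding genes and in clusters covered the whole range of ranks. These groups describe the nearest small RNA gene, not the summit. In 48 of the 243 the summit itself lay in a coding exon, and this was not counted for the other regions. The share of the other pooled regions among the 1000 highest was 3.31%. The 123 regions at genes in introns had a median rank of 12287, with 4 (3.25%, 1.27 to 8.06%) among the 1000 highest. The 107 outside protein-coding genes had a median rank of 15797 and held 9 of the 14 highest (8.41%, 4.49 to 15.2%). At 13 the small RNA gene overlapped an exon, and 1 of those was among the 1000 highest. For introns of a gene on the same strand (79 regions) the median rank was 12599, and on the opposite strand (44 regions) 11172. The quartiles of all these groups overlapped widely.

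Regions at genes with another small RNA gene within 1000 bp, 65 in all, had a median rank of 12166. Among the 1000 highest were 4 of them (6.15%, 2.42 to 14.8%), against 3.31% of the other pooled regions. For the 178 at single genes the median rank was 14397, with 10 (5.62%, 3.08 to 10%) among the 1000 highest. Of the single genes, 75 lay outside protein-coding genes, with a median rank of 16328 and 6 (8%) among the 1000 highest. A summit within 200 bp of 2 or more genes was found in 18 regions, and 3 of these (16.7%, 5.84 to 39.2%) were among the 1000 highest, at the M02F4, C51F7 and W09G10 pairs. Counted by locus, 22.4% of 746 single genes, 38.3% of 115 pairs and 42.4% of 33 larger clusters had a region, which is a share that more genes and more bases also raise. None of the larger clusters had a region among the 1000 highest. The 2 largest, of 14 and 8 genes of 5S rRNA and SL1 RNA on chromosome V, had none.

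Over all classes, summits fell upstream and downstream of the genes in similar numbers. Of the 243, 90 lay upstream, 56 inside and 97 downstream. The shares among the 1000 highest were 5.56% (2.4 to 12.4%), 10.7% (5 to 21.5%) and 3.09% (1.06 to 8.7%), against 3.31% of the other regions. For tRNA genes the counts were 50, 23 and 49, and for snoRNA genes 35, 23 and 33. At snRNA genes 5 lay upstream, 10 inside and 14 downstream. A protein-coding promoter window, from 1000 bp upstream to 200 bp downstream of a start, held 27.6% of the 243 summits, against 25.6% of the other summits. The 67 in such a window had 6 (8.96%, 4.17 to 18.2%) among the 1000 highest, against 3.18% of the other regions in such windows. The 176 outside had 8 (4.55%, 2.32 to 8.71%), against 3.36% of the other regions outside.

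The GATA letters TGATAA, on either strand of the 201 bp window, were in 40 of the 243 windows (16.5%, 12.3 to 21.6%), against 16.4% of the other windows. Of the 14 highest, only the window at Y37E3.20 held them, against 19.8% of the other regions among the 1000 highest. The letters being absent from a window says only that these 6 bases are not in it. The median GC content of the windows was 41.3% at small RNA genes, against 38.8% at the other regions.

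The replicates listed these regions as often as other regions, and a few were high in both. With summits within 150 bp counted as matched, 59 of the 243 were in both replicates' lists (24.3%, 19.3 to 30%), against a background of 24% of the other regions. Replicate 1 listed 147 and replicate 2 listed 130, and 25 were in neither (10.3%, against 12% of the other regions). Both replicates listed 25 of 91 snoRNA regions (27.5%), 8 of 29 snRNA regions (27.6%) and 26 of 122 tRNA regions (21.3%). Of the 14 highest, 12 were in both lists (85.7%), against 86.4% of the other regions among the 1000 highest.

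Among the 1000 highest of the pooled list and of both replicates were 4 of the 243 (1.65%, 0.642 to 4.16%), against a background of 0.208% of the other regions. They were the regions at T03F7.8, W05B2.8, F59C6.15 and M02F4.t2, that is 2 snoRNA genes, 1 snRNA gene and 1 tRNA gene. The pooled list was made from both replicates, so its ranks are not independent of theirs. In each replicate's own list, regions at small RNA genes numbered 227 and 231 in replicates 1 and 2, and 18 (7.93%, 5.07 to 12.2%) and 16 (6.93%, 4.31 to 11%) were among the 1000 highest, against 3.3% and 3.31% of the other regions. Both replicates were called against a control alignment, and the part that the control's coverage of these loci plays in the signal values was not tested.

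**Figure D5:**
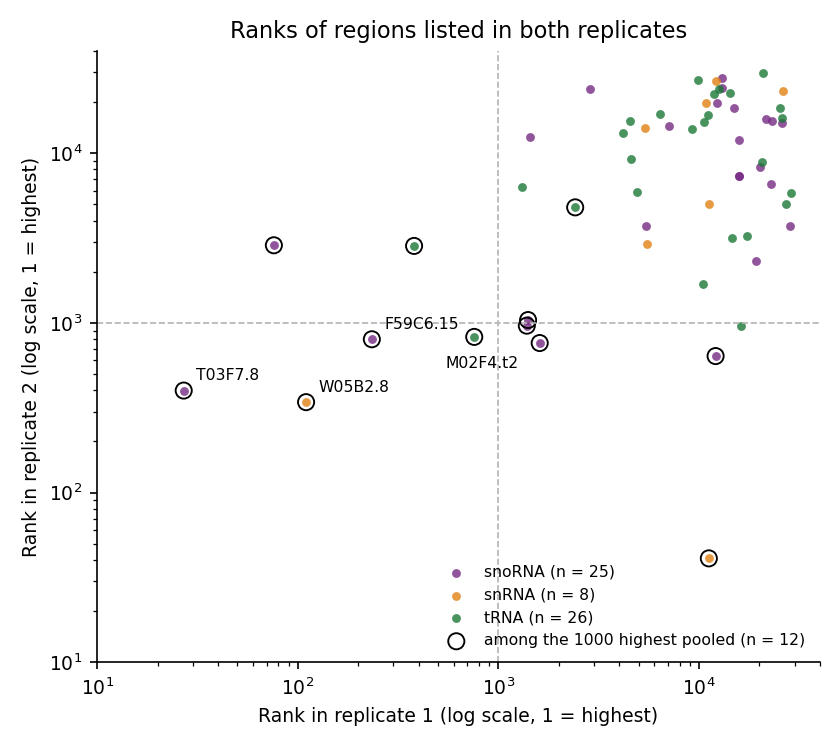
Rank in replicate 1 (x axis, log scale) against rank in replicate 2 (y axis, log scale) of the 59 regions at small RNA genes listed in both, coloured by class, with dashed lines at rank 1000; circles mark the 12 among the 1000 highest of the pooled list. The 4 named regions lie inside both dashed lines, while F38E11.10 at the lower right ranks 41 in replicate 2 and 11199 in replicate 1.

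At the 200 bp limit, the farthest regions counted were at T07H6.t2 (194 bp, rank 18500), T11F9.16 (194 bp, rank 19477) and JC8.15 (199 bp, rank 15970). The nearest left out were at smy-3 (201 bp, rank 5652), F18G5.t1 (202 bp, rank 12765) and C38C6.t1 (203 bp, rank 17200).

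By chromosome, the 243 numbered 39 on I, 41 on II, 30 on III, 30 on IV, 39 on V and 64 on X. X holds 276 of the 612 tRNA genes. It had 1 of the 14 highest regions (1.56% of its 64, 0.276 to 8.33%), against 3.17% of the other regions on X. That background ran from 2.32% on V to 6.01% on I.

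Protein genes that act with these RNAs had a region in the promoter window at 14 of 46 annotated genes (30.4%), against 34.8% of all protein-coding genes. Regions among the 1000 highest were at 0 of the 46, against 1.33% of all protein-coding genes, a background that leaves less than 1 such gene among 46. For aminoacyl-tRNA synthetases, which charge tRNAs, 7 of 20 annotated genes had any region (35%), the highest at gars-1 (rank 2350). For Sm and snRNP proteins, which coat snRNAs, it was 1 of 12, at snr-4 (rank 14023, a region also counted among the 243, at the snRNA gene C52E4.8). For snoRNP and rRNA processing proteins it was 3 of 7, at nol-10, nol-14 and fib-1, and for RNA polymerase III and its factors 3 of 7, at rpc-2, rpac-19 and tbp-1.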

How the data were processed

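The authors deposited region lists, not reads. Per the deposited file listing, each list of peaks with background (30000 regions) came from a replicate's alignment, or both replicates' alignments pooled, with 1 control alignment, and the IDR list from the pooled and replicate lists. Column 7 is the deposited signal value, a score whose scale is not stated. The q-values were deposited as −log10 of q. Which aligner and caller made them is not given in the sources used here. Without read totals the depth is unknown, and how reads with several matching places were treated is not given.

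The ce11 lists were set against Ensembl release 115 gene models on WBcel235. RefSeq products were matched by WormBase identifier for 1102 of 1107 genes, among them 607 of 612 tRNA genes, and genes carry the RefSeq name of their identifier, since Ensembl gives identical copies a shared name. The rule on regions, the gene lists and the letters searched were chosen with earlier results of these data known. Within the 4 classes, the nearest gene gave a region its class. A replicate summit could match more than 1 pooled summit. Shares carry 95% Wilson intervals, which cover the counting of regions or genes only. With 1 group of 2 replicates, no test between groups was possible, and regions of 1 list are not replicates. The genes named were the 20 regions highest by signal value, the 3 highest of each class, those in the IDR list or among the 1000 highest of both replicates, and those nearest the 200 bp limit. Any other name was chosen with its value known. Sequences at snRNA genes are not reported here. The listed symbols vars-2, nol-1, nol-2 and nol-5 were not in the annotation. Distances, matching and intervals were tested on simulated positions. Alternatives changed the number of highest regions, the distances, the classes, the motifs and the replicate. Python 3.11.15 was used with numpy 2.4.6, pandas 2.3.3, scipy 1.17.1, statsmodels 0.14.6 and matplotlib 3.10.9.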

Additional observations from a re-analysis of the deposited data

How the results depend on the processing

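Of 59 alternatives to 18 results, 43 stayed within the 95% interval of the reported value and 16 did not. Some of the 43 only gave the reported value again, as did the median rank without mitochondrial regions. So did the tRNA and snRNA medians with every class within 200 bp counted. The count takes no account of the other regions' share, which can move with the setting. The share among the highest regions was above that of the other regions under all 10 alternatives tried, of which ranking by q-value and leaving out mitochondrial regions gave the same value. Leaving out coding promoter regions gave 4.55% (2.32 to 8.71%) against 3.36%, an interval that covers the other regions' share. Including pseudogenes of the classes gave 4.96% against 3.32%, and the 2000 highest gave 8.23% against 6.65%. For these settings being above gives the direction only, since no interval was computed. Using 1 replicate's own list gave 6.93% to 7.93%. The lists held 0 mitochondrial regions. The share listed in both replicates was 12.3% with summits within 50 bp and 38.3% within 300 bp, against 11.3% and 34.8% of the other regions. It was 4.12% among the 5000 highest and 1.65% among the 1000 highest of each, against 1.72% and 0.208%. The TGATAA share was 7% within 50 bp of the summit, 22.6% within 150 bp and 23.5% with AGATAA added, against 8.38%, 23.7% and 24.6%. The GGTTCGA share of tRNA regions was 13.9% within 50 bp and 45.1% within 150 bp, against 0.84% and 2.33% of the other regions. The shorter GTTCGA gave 32.8% against 7.55%. Within 100 and 500 bp of a gene, the share of genes with a region was 12.7% and 39.1% for tRNA, 14% and 32.6% for snRNA, and 19.7% and 43.1% for snoRNA. These widths change the share by construction. For SL2 RNA genes, 100 bp gave 33.3%, and each replicate's own list 50%. The alternatives for the snoRNA share, the SL2 RNA genes and the letters upstream of snoRNA genes were chosen after seeing the data. The share of snoRNA genes with those letters that had a region among the 1000 highest was 6.06% to 9.09% in 1 replicate's own list, against 12.1% in the pooled list. Unknown read depth limits every rank. No paired analysis was possible because the samples form 1 group.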
